A study of Mus musculus with 2 samples.

Results

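The bile acid genes described here are 10 mouse genes chosen by symbol. They comprise 4 cytochrome P450 enzymes of bile acid synthesis (Cyp7a1, Cyp8b1, Cyp27a1 and Cyp7b1), 2 conjugating enzymes (Slc27a5 and Baat), 2 carriers (Slc10a1 and Abcb11) and 2 nuclear receptors (Nr1h4 and Nr0b2). All 10 were found among the 43346 genes of the deposited tables. RNA came from newborn livers of the B6NCrl strain on postnatal day 0, with 1 library from the liver of pup 1 and 1 from the liver of pup 3, and no treatment, genotype or other contrast is given. Each library started from 13 pg of RNA longer than 200 nt, the content of 1 cell-equivalent, although the material was tissue, so each value is an average over liver cells. Both libraries carry the same donor entry and sex was not collected, so the spread between them (SD, n = 2 throughout) mixes animal and technical differences, and no test between conditions was possible.

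Hepatocytes make bile acids from cholesterol. The classical route starts with Cyp7a1, and the alternative route with Cyp27a1 followed by Cyp7b1, while Cyp8b1 directs the product toward cholic acid. Slc27a5 activates bile acids with coenzyme A and Baat joins them to taurine or glycine; Slc10a1 takes them up from blood and Abcb11 pumps them into bile. The bile acid receptor Nr1h4 (FXR) induces Nr0b2 (SHP) and Abcb11, and Nr0b2 lowers Cyp7a1 transcription, which closes a feedback loop known from adult liver.

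Endogenous expected counts summed to 54817565 in pup 1 and 34792898 in pup 3. The tissue label was borne out by the hepatocyte markers, with all 6 (Alb, Trf, Ahsg, Apoa1, Ttr and Afp) at 1 TPM or more in both libraries and a summed share of 15.15% in pup 1 and 12.33% in pup 3. Erythroid markers (6 of 6 in both) held 13.3% and 16.3%. Of 6 bile duct markers, Spp1 was at 1 TPM or more in both libraries (113.5 and 220.6 TPM), Sox9 in pup 1 alone (1.71 TPM) and Krt19 in pup 3 alone (48.3 TPM), while Krt7, Epcam and Cftr had no counts in either. That list took 0.0115% of TPM in pup 1 against 0.0269% in pup 3. In bulk RNA, fewer cells of a type and less RNA per cell cannot be told apart. Levels are given in TPM (transcripts in 1000000, over endogenous features), a unit corrected for length, so genes can be compared. Detection means at least 1 TPM.

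Of the 10 bile acid genes, 5 were detected in both livers, 4 in 1 liver and 1 in neither. Among all genes, 8.20% were detected in both, and among genes detected in either library 46.3% were. The 5 found in both were Slc10a1, Cyp8b1, Slc27a5, Cyp27a1 and Abcb11. Nr1h4 and Nr0b2 were counted only in pup 1, Cyp7a1 and Baat only in pup 3, and Cyp7b1 in neither. Together the genes held 0.144% of TPM in pup 1 and 0.176% in pup 3 (mean 0.160 ± 0.0229%), and Slc10a1 with Cyp8b1 made up 68.3% and 71.5% of that.

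**Figure D1:**
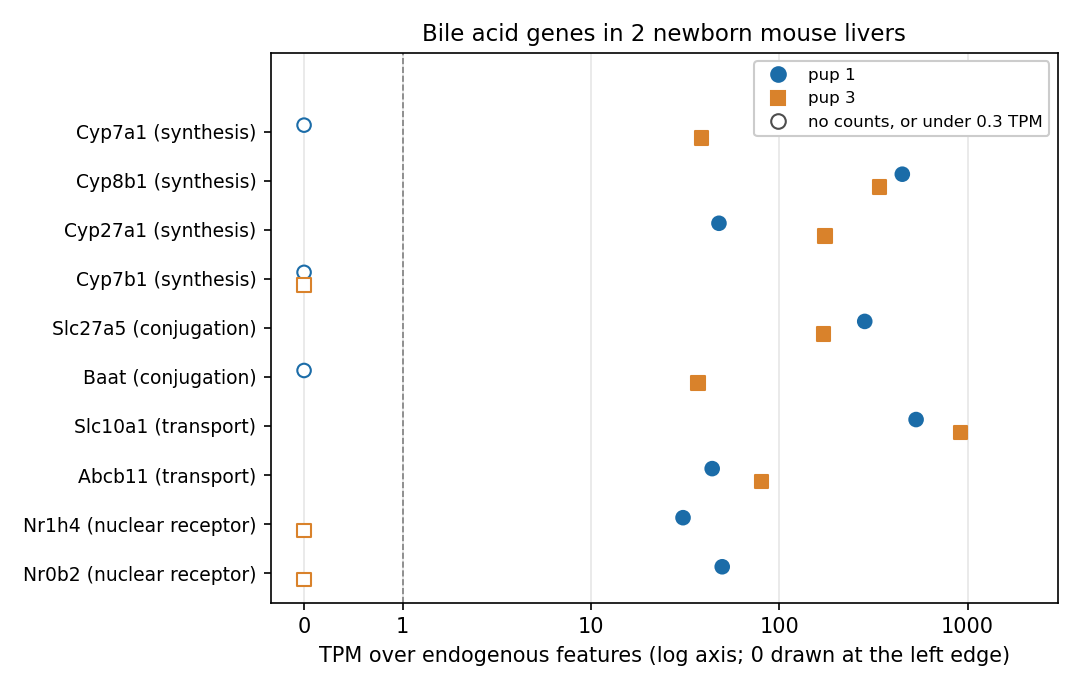
TPM of each bile acid gene (log axis) in pup 1 (circles) and pup 3 (squares), with no counts drawn as open symbols at the left edge and a dashed line at 1 TPM. Slc10a1 and Cyp8b1 lie above 300 TPM in both livers, and 4 genes have 1 filled and 1 open symbol.

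Cyp8b1 had the highest level of the 4 cytochrome P450 enzymes in both livers. The gene (chromosome 9, 121914356 to 121916305 in GRCm38, minus strand) is annotated with 1 exon. Expected counts were 34772 in pup 1 against 18078 in pup 3, which gave 450.0 and 341 TPM (395 ± 77.1 TPM). The livers were 1.32-fold apart, and Cyp8b1 ranked 269th and 389th among all genes.

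Cyp7a1, the rate-limiting enzyme of the classical route (chromosome 4, 6265612 to 6275633, minus strand), had no counts in pup 1 and 4512 in pup 3. The pup 3 value was 38.7 TPM, with an exact Poisson 95% interval of 4381 to 4646 counts that covers counting error only. The pup 1 count of 0 allows up to 0.0342 TPM (3 counts in the library at the gene's listed effective length), and the deposited upper credibility bound there was 0.561 TPM. Amplified reads are not independent molecules, so these limits and all others given for a count of 0 cover counting error only. They do not bound the RNA in the liver, and no fold is given against a liver with no counts. All of its counts fell on the coding transcript Cyp7a1-201. Within pup 3, Cyp8b1 stood 8.82-fold above Cyp7a1.

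Of the alternative-route enzymes Cyp27a1 and Cyp7b1, Cyp27a1 alone was counted. Cyp27a1, a mitochondrial sterol hydroxylase (chromosome 1, 74713574 to 74737892, plus strand), reached 47.8 TPM in pup 1 against 175 TPM in pup 3 (112 ± 90.1 TPM), 3.66-fold apart. Its transcripts differed as well as its level. The coding transcript Cyp27a1-201 held 98.8% of the gene's TPM in pup 1 and 60.1% in pup 3. The retained-intron transcript Cyp27a1-203 held 0.16% in pup 1 and 29.7% in pup 3, and Cyp27a1-202, of the same class, 1.08% and 10.2%. On coding transcripts alone, Cyp27a1 reached 47.2 TPM in pup 1 against 105 TPM in pup 3, a 2.23-fold difference. Cyp7b1, the hydroxylase that follows it (chromosome 3, 18071950 to 18243338, minus strand), had no counts in either liver. Those zeros allow up to 0.0348 TPM in pup 1 and 0.0507 TPM in pup 3. In pup 3, where Cyp7a1 was counted, Cyp7a1 stood at 0.221 times Cyp27a1 over all transcripts. The ratio is higher against the coding transcript of Cyp27a1 alone (105 TPM in pup 3).

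The 2 steps of conjugation were unequal in level. Slc27a5, the bile acid CoA ligase (chromosome 7, 12988346 to 12998192, minus strand), drew 18672 expected counts in pup 1 against 6514 in pup 3, giving 284 and 172 TPM (228 ± 79.5 TPM). Baat, the amino acid transferase (chromosome 4, 49489422 to 49506557, minus strand), had no counts in pup 1 and 1956 in pup 3 (Poisson interval 1870 to 2045), or 37.1 TPM. The Baat zero in pup 1 allows up to 0.0478 TPM, with a deposited upper bound of 0.0801 TPM. Slc27a5 was 1.65-fold higher in pup 1. In pup 3, Baat stood at 0.216 times Slc27a5 over all transcripts. The ratio is higher against the coding transcripts of Slc27a5 alone (88.9 TPM in pup 3).

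Part of the Slc27a5 level rested on a short transcript. A transcript of 543 nt, listed in the deposited tables but absent from GENCODE M21, took 9.16% of the gene's counts in pup 1 and 16.1% in pup 3. Because TPM divides by length, that came to 32.5% and 48.0% of the gene's TPM. The full coding transcript Slc27a5-201 reached 175 TPM in pup 1 against 83.9 TPM in pup 3. Over coding transcripts alone the livers were 2.16-fold apart, at 192 TPM in pup 1 against 88.9 TPM in pup 3.

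Slc10a1, the sodium-dependent uptake carrier of the blood-facing membrane (chromosome 12, 80953183 to 80968705, minus strand), was the highest of the 10 genes in both livers. It reached 533 TPM in pup 1 against 919 TPM in pup 3 (726 ± 273 TPM), from 35017 and 41465 expected counts, and ranked 218th and 118th among all genes. Abcb11, the bile salt export pump of the canalicular membrane (chromosome 2, 69238282 to 69342616, minus strand), reached 44.0 TPM in pup 1 against 80.5 TPM in pup 3 (62.3 ± 25.8 TPM). Both carriers were lower in pup 1, by 1.73-fold for Slc10a1 and 1.83-fold for Abcb11. Uptake carrier stood 12.1-fold above export carrier in pup 1 and 11.4-fold in pup 3 over all transcripts. Both ratios are higher against the coding transcripts of Abcb11 alone (30.5 TPM in pup 1 and 41.7 TPM in pup 3). They also lie further apart there, since the livers were 1.37-fold apart for coding Abcb11 and 1.73-fold for Slc10a1. Antisense and pseudogene loci that overlap Abcb11 (Gm13613 and Gm13614) had no counts.

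The Abcb11 reads of the livers were assigned to different coding transcripts. Abcb11-204 held 42.2% of the gene's TPM in pup 1 and 0.35% in pup 3, whereas Abcb11-202 held 17.1% and 51.2%, and Abcb11-201 held 9.86% and 0.21%. All 3 have 3963 coding bases. They differ in noncoding exons near the start and in 1 short coding exon, which lies at chr2:69325258-69325280 in Abcb11-204 and at chr2:69327977-69327998 in Abcb11-201 and Abcb11-202. The exon after it begins 1 base later in Abcb11-204. Transcript levels are estimates, with deposited credibility bounds in pup 1 of 16.8 to 19.8 TPM for Abcb11-204 and 4.36 to 11.03 TPM for Abcb11-202. The sequences are shown because this exon separates the transcript that led in pup 1 from the one that led in pup 3. They are given 5′ to 3′ on the minus strand of GRCm38 as GENCODE M21 annotates it, with the short exon in capitals and 25 bases of the neighbouring exons on each side.
Abcb11-204: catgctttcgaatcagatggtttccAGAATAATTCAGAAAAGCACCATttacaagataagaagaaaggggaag
Abcb11-202: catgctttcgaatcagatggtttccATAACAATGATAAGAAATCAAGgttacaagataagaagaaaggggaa
The remaining share went to Abcb11-203, a noncoding transcript of 648 nt inside the last exon, with 30.8% of TPM in pup 1 and 48.25% in pup 3 but 4.79% and 9.65% of counts. Over coding transcripts alone Abcb11 had 30.5 TPM in pup 1 against 41.7 TPM in pup 3, 1.37-fold apart.

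**Figure D2:**
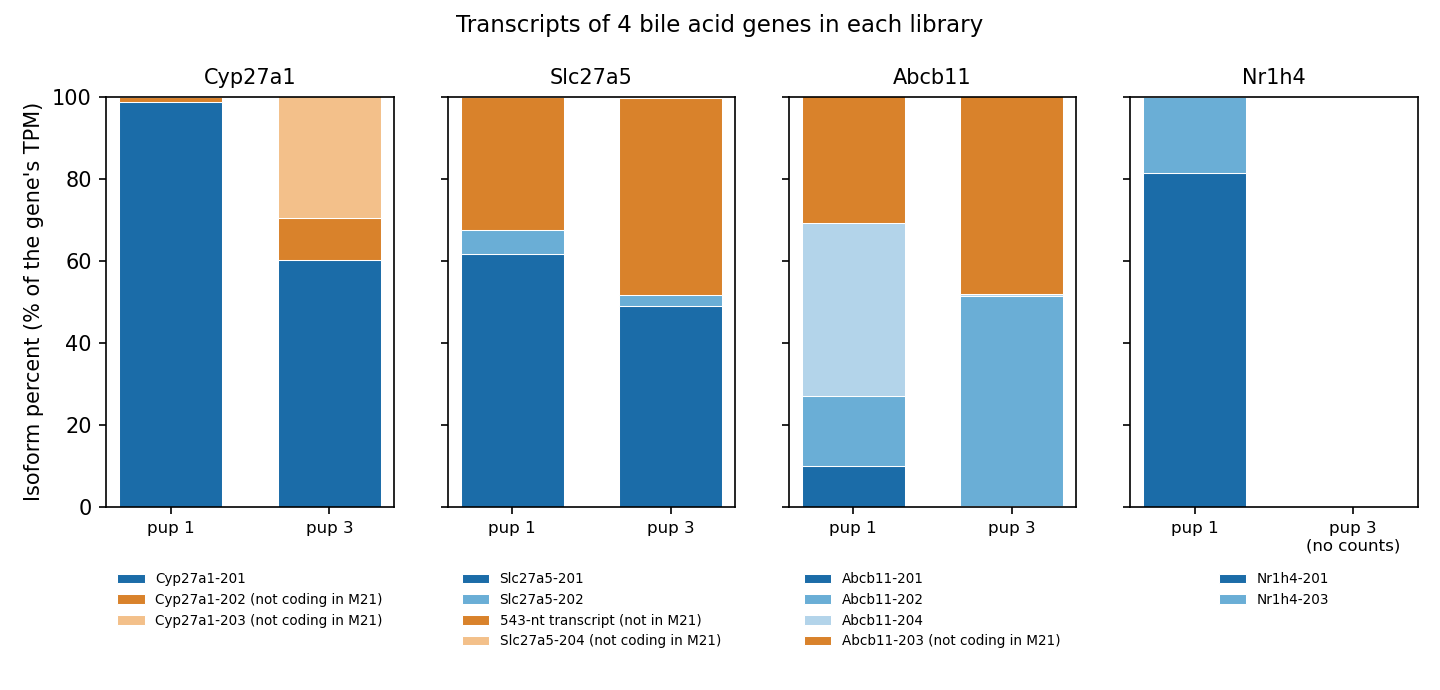
Isoform percent (share of the gene's TPM) of each transcript in pup 1 and pup 3 for the 4 bile acid genes with more than 1 transcript counted; blue marks coding transcripts and orange the others. Abcb11-204 leads the coding transcripts of Abcb11 in pup 1 and Abcb11-202 in pup 3, and in pup 3 the 543-nt transcript takes 48.0% of Slc27a5 and Abcb11-203 takes 48.25% of Abcb11.

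Both receptors were counted in pup 1 and not in pup 3. Nr0b2 (chromosome 4, 133553376 to 133556536, plus strand) had 2147 expected counts in pup 1 (Poisson interval 2057 to 2240), or 49.8 TPM, against none in pup 3. Nr1h4 (chromosome 10, 89454234 to 89533585, minus strand) had 2413 (2318 to 2511), or 30.8 TPM, in pup 1 against none in pup 3. Zeros in pup 3 allow up to 0.101 TPM for Nr0b2 and 0.0555 TPM for Nr1h4, and the deposited upper bounds were 0.0992 and 0.116 TPM. Within pup 1, Nr1h4 stood at 0.619 times Nr0b2.

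Nr1h4 makes receptors that differ by 12 coding bases next to the DNA-binding domain and by the exons from which they start. Nr1h4-201, which lacks the 12 bases, held 81.4% of the gene's TPM in pup 1 (25.1 TPM, from 1954 expected counts). Nr1h4-203, which holds them and starts at a separate upstream exon, had 18.6% (5.75 TPM, 459 expected counts). Nr1h4-202, which holds them and starts near the first exon of Nr1h4-201, had no counts. The division is an estimate, since most of these transcripts is shared. The junction is shown because it is where the counted transcripts differ; the 12 bases, in capitals, lie at chr10:89483372-89483383 in GRCm38, and both lines run 5′ to 3′ on the minus strand with 30 bases on each side, after GENCODE M21.
Nr1h4-203: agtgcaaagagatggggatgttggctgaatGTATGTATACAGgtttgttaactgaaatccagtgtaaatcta
Nr1h4-201: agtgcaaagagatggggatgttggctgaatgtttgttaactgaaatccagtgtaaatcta

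Nr1h4 binds DNA as a partner of Rxra at pairs of the half-site AGGTCA, and the pairs preferred by FXR are inverted repeats with 1 base between them. The RefSeq promoter table (GRCm38.p6) matched 6 of the 10 genes with 7 windows, of which the 250 bases before each start were searched on both strands. The half-site, which reads TGACCT when it lies on the opposite strand, was present in 1 window each of Abcb11, Slc10a1 and Nr1h4, and in 14.0% of all 32851 windows. The inverted repeat AGGTCANTGACCT was in none of the 7 windows and in 0.00609% of all windows. The direct repeat AGGTCANAGGTCA was in none of the 7 and in 0.0335% of all. The match began 56 bases before the start in Abcb11, 87 in Slc10a1 and 214 in Nr1h4. Only exact copies were searched, so repeats with a changed letter were not counted. In the Abcb11 window the letters before the match read aggccat, which differs from an exact inverted repeat in 1 letter. Exact copies of either repeat are so rare in all windows that their absence from the 7 says little. A match is a description of letters, not of binding. The 3 windows are shown because they hold the half-site. Their starts are those of the counted transcripts Abcb11-202 and Abcb11-204, Slc10a1-201 and Nr1h4-201. They are printed 5′ to 3′ on the minus strand, as chr2:69342617-69342866, chr12:80968080-80968329 and chr10:89506659-89506908, with the half-site in capitals.
Abcb11: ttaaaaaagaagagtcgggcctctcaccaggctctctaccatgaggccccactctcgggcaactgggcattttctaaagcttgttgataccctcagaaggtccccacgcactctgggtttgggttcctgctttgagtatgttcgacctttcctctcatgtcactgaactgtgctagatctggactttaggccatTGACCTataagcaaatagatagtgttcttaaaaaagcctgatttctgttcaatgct
Slc10a1: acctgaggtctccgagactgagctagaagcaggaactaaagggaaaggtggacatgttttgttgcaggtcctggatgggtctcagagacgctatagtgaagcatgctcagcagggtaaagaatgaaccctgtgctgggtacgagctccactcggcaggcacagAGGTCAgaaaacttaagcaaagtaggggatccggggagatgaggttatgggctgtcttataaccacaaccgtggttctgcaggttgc
Nr1h4: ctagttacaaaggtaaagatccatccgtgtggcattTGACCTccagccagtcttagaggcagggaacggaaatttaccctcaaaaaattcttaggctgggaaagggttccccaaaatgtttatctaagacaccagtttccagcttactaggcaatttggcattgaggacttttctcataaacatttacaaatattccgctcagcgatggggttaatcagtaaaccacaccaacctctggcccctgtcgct

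Set in order of mean level, the genes ran Slc10a1, Cyp8b1, Slc27a5, Cyp27a1, Abcb11, Nr0b2, Cyp7a1, Baat, Nr1h4 and Cyp7b1. Both values of Slc10a1 lay above both of Cyp8b1, and both of Cyp8b1 above both of Slc27a5. Below that no pair of neighbours was separated in this way. Slc27a5 stood above Cyp27a1 in pup 1 and below it in pup 3, and Cyp27a1 exceeded Abcb11 in each liver although their values overlapped across livers. The 4 genes found in 1 liver had means of 15.4 to 24.9 TPM, and each was at 0 in the other liver.

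The share of all genes detected in both libraries was 14.2% at a mean of 1 to 3 TPM and 22.1% at 3 to 10 TPM, and it was higher at each further level. The 4 genes found in 1 liver were those with a mean of 10 to 30 TPM, a range in which 29.0% of all genes were detected in both libraries. Abcb11, at 30 to 100 TPM, shared its range with genes of which 75.7% were in both, Cyp27a1 and Slc27a5 with genes of which 97.9% were, and Slc10a1 and Cyp8b1 with genes that were all found in both. Seen from 1 library, 46.2% of the 2011 genes at 20 to 60 TPM in pup 1 were under 1 TPM in pup 3 and 34.0% had no counts there, as Nr1h4 and Nr0b2 had none. Of the 1938 genes at that level in pup 3, 43.0% were under 1 TPM in pup 1 and 29.6% had no counts there, as Cyp7a1 and Baat had none. Spike-in RNAs at 20 to 60 TPM, which do not come from the animals, were under 1 TPM in the other library in 5 of 7 cases (71.4%) from pup 1 and 5 of 8 (62.5%) from pup 3. Detection in 1 liver alone was thus common among all genes of this level and is not a result about bile acid genes.

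**Figure D3:**
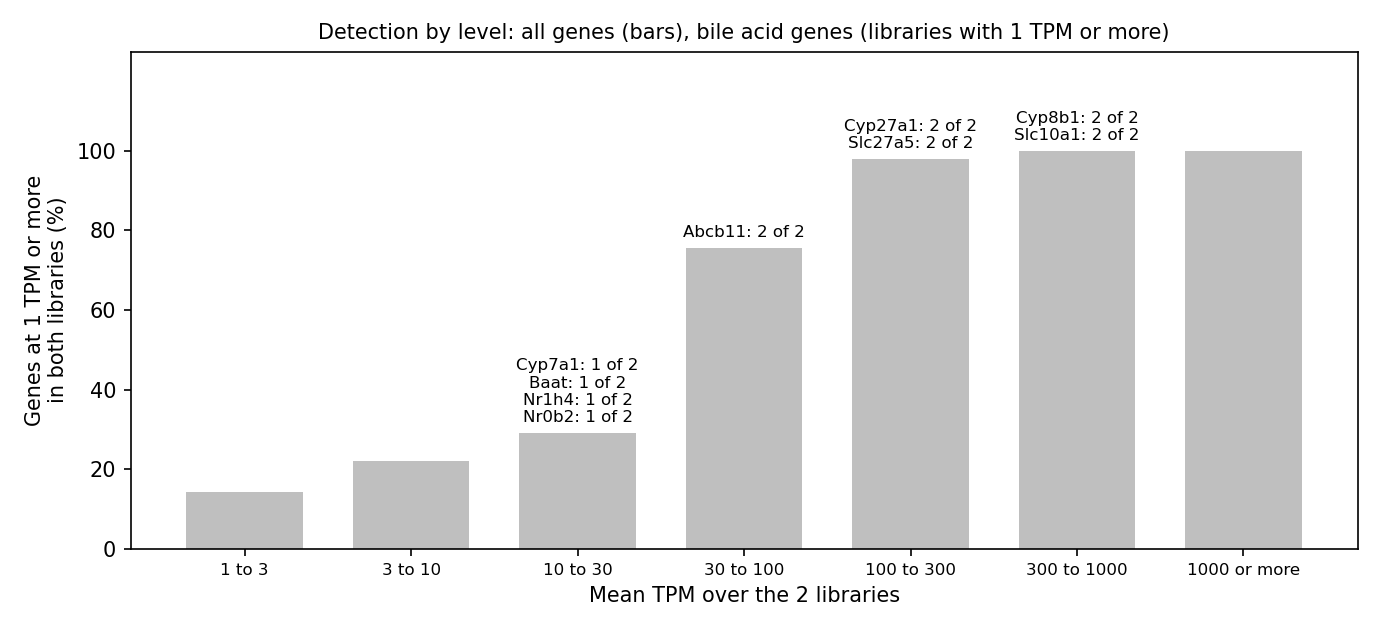
Percent of all genes detected at 1 TPM or more in both libraries (bars, from 0) by mean TPM, with the bile acid genes written above the bar of their level and the number of libraries that detected each. The 4 genes found in 1 of 2 libraries lie in the 10 to 30 TPM range, where 29.0% of genes were found in both.

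Differences between the livers were likewise read against all genes. On log2(TPM + 1), 5 of the 9 bile acid genes averaging 10 or more expected counts were more than 2-fold apart, where 67.6% of 8120 genes were. By mean level that share was 88.5% of genes at 10 to 30 TPM, 57.6% at 30 to 100, 40.8% at 100 to 300 and 22.8% at the next level, that of Slc10a1 and Cyp8b1. Higher in pup 1 were Nr0b2 (log2 ratio of pup 1 over pup 3 of 5.67) and Nr1h4 (4.99), against 34.5% of all genes. Lower in pup 1 were Cyp7a1 (-5.31), Baat (-5.25) and Cyp27a1 (-1.85), against 33.1%. For the 4 genes at 0 in 1 liver the size of this ratio depends on the added 1 TPM and is not a fold change. The other 4 had log2 ratios of 0.72 (Slc27a5), 0.40 (Cyp8b1), -0.79 (Slc10a1) and -0.86 (Abcb11). The median over the 9 was -0.79, and that over all genes 0.04. Scaling each library to its hepatocyte marker sum moved Slc10a1 (-1.08) and Abcb11 (-1.15) past 2-fold, for 7 of 9. The share of all genes past 2-fold was not computed under that scaling, so the 7 cannot be read against all genes. The level of the credibility bounds that the authors deposited is not stated, and they cover the estimate within a library, not the spread between animals. Their overlap between livers was not counted over all genes, so no such count is read for these 9 genes.

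A wider list of 40 bile acid genes showed at which other steps RNA was detected. Of these, 17 were detected in both livers, 6 in 1 liver (5 in pup 1 and 1 in pup 3) and 17 in neither, where 8.20% of all genes, and 46.3% of those in either library, were in both. Of the 23 averaging 10 or more expected counts, 11 were more than 2-fold higher and 4 more than 2-fold lower in pup 1, with a median log2 ratio of 0.51. Among all genes these shares were 34.5% and 33.1%, and the median was 0.04.

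Later steps of synthesis were found alongside Cyp8b1. Scp2, whose products carry sterols and cleave the bile acid side chain, had 1249 TPM in pup 1 against 1590 in pup 3. Hsd3b7, the dehydrogenase that follows the first hydroxylation, had 141 and 146 TPM, and Amacr, a racemase of the side chain, had 118 and 82.7 TPM. Cyp2c70, which makes the muricholic acids of mice, reached 177 TPM in pup 1 against 50.4 in pup 3, and Cyp39a1, an oxysterol hydroxylase, had 61.4 and 22.0 TPM. Akr1d1, the steroid reductase of the pathway, reached 129 TPM in pup 1 against 1 expected count in pup 3. The other 4 synthesis genes of the list (Akr1c6, Ch25h, Cyp46a1 and Acox2) had no counts and were named after their values were seen.

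Among carriers, Slco1b2, an uptake carrier for bile acids and other organic anions, reached 218 TPM in pup 1 against 64.6 in pup 3, while Slco1a1 and Slco1a4 had no counts. Of 4 canalicular pumps detected, 3 were within 2-fold between the livers in TPM. Abcb4, which moves phospholipid into bile, had 53.9 and 50.8 TPM, Abcc2, a pump for conjugates, had 65.8 and 57.7 TPM, and Abcg2 had 123 and 164 TPM. The Abcc2 levels rested on 6631 expected counts in pup 1 and 2046 in pup 3, a wider gap than in TPM, from libraries of unequal depth. Abcg5, a subunit of the sterol pump, reached 96.2 TPM in pup 1 against 21.1 in pup 3, whereas its partner Abcg8 had no counts in either. Among 4 carriers that return bile acids to blood, Abcc3 alone was counted, with 11.9 TPM in pup 1. The gut partners Fgf15, Slc10a2 and Fabp6 had no counts. Among genes at 20 to 60 TPM in 1 library, 34.0% (pup 1) and 29.6% (pup 3) had no counts in the other. A lack of counts for a carrier or gut partner therefore does not show that its RNA was absent from the liver.

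Of 14 regulators, 7 were detected in both livers, 4 in 1 and 3 in neither, beside the same 8.20% of all genes and 46.3% of those in either library. Rxra, the partner of Nr1h4, reached 43.6 TPM in pup 1 against 0.0636 TPM (9 expected counts) in pup 3. Of all genes at 20 to 60 TPM in pup 1, 46.2% were under 1 TPM in pup 3. Fgfr4, the receptor through which gut hormone lowers Cyp7a1, reached 29.9 TPM in pup 1 against no counts in pup 3, while its co-receptor Klb had 32.2 and 34.7 TPM. Nr1h3, the oxysterol receptor LXR alpha, reached 44.7 TPM in pup 1 against 143 in pup 3, and Nr1h2, its relative, had no counts in pup 1 and 36.1 TPM in pup 3. Nr1i3 (115.6 and 8.69 TPM) was higher in pup 1, as was Nr1i2 (15.2 TPM and no counts). Ppara (28.97 and 244 TPM) and Ppargc1a (18.3 and 42.6 TPM) were lower in pup 1. The Ppara levels rested on 270 and 14265 expected counts, a wider gap than in TPM. Mafg, a repressor in the FXR pathway, had 40.8 and 16.6 TPM. Hnf4a, an activator of Cyp7a1 and Cyp8b1, had 3.45 and 4.56 TPM, and Nr5a2 had no counts.

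**Figure D4:**
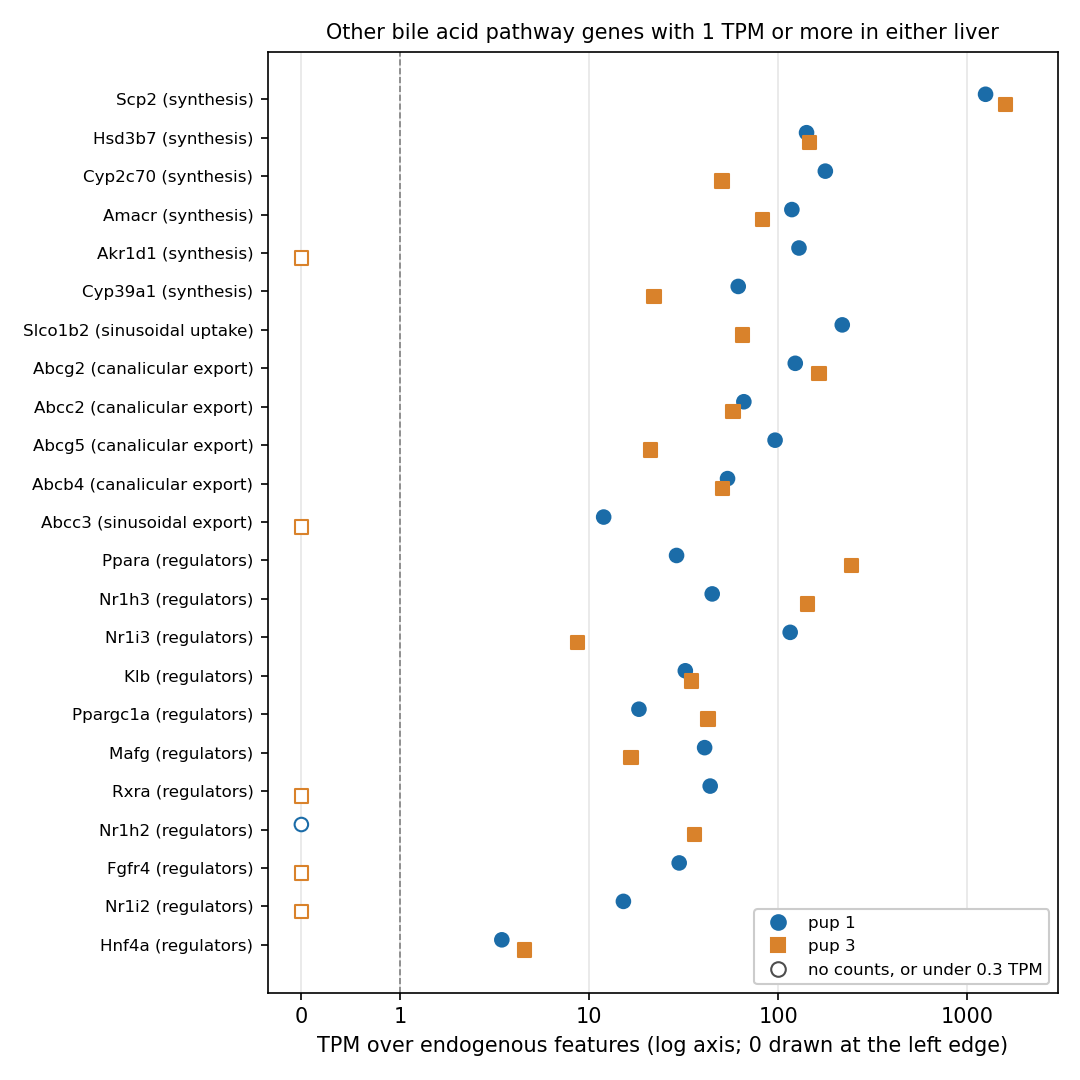
TPM (log axis) in pup 1 (circles) and pup 3 (squares) of the 23 other bile acid pathway genes detected in at least 1 liver, grouped by role, with open symbols at the left edge for values of 0 or under 0.3 TPM. Scp2 lies highest in both livers, and 6 genes have 1 open symbol.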

How the data were processed

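RNA-seq libraries from 2 newborn livers were used, 1 gene table and 1 transcript table each. Extraction used mirVana and library preparation SmartSeq, which amplifies cDNA, per the labels' protocols; no molecular identifiers appear. Per the deposited library notes, values refer to mm10 with GENCODE M4 genes and derive from a transcriptome alignment (aligner, quantifier and use of strand: not given in the sources used here). The authors deposited expected counts (estimated reads, not whole), TPM and FPKM (both corrected for effective length, 99 nt below length; FPKM is an alternative here). Posterior mean TPM and its credibility bounds, of unstated level, were deposited by the authors and are handled as a score. Isoform percent, a transcript's share of its gene's TPM, was computed by the authors before it was deposited. A gene's effective length is a mean over its transcripts weighted by their estimated abundance, so it can differ between libraries.

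Spike-ins (97 sequences) were removed and TPM rescaled to 1000000. Symbols came from GENCODE M21 (same assembly) by identifier, matching 42462 of 43346 genes. A count of 0 allows 3 counts, or 0.0547 CPM in pup 1 and 0.0862 CPM in pup 3. Log ratios used log2(TPM + 1). Both libraries form 1 group, so no test was run. All 10 members are named, then other pathway genes at 1 TPM or more in both livers and the 5 highest of the rest; Abcc3, Nr5a2 and the genes without counts were named after their values were seen. Members and lists were chosen with earlier results of these data known, and the 20 to 60 TPM range afterwards. Likeness of pattern was not ranked with 2 libraries, and protein sequences were not analysed here. Alternatives covered units, scaling (edgeR TMM and DESeq2 factors on rounded expected counts, spike-ins, hepatocyte markers), thresholds, pseudocounts, thinning and each library alone. Software comprised DESeq2 1.42.0 and edgeR 4.0.16 under R 4.3.3, and scipy 1.17.1, pandas 2.3.3, numpy 2.4.6 and matplotlib 3.10.9 under Python 3.11.15.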

Additional observations from a re-analysis of the deposited data

How the results depend on the processing

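Detection of 5 genes in both livers held under every unit, scaling, threshold (0.1, 5 and 10 TPM, or 10 expected counts) and thinning tried, and each liver alone had 7. These settings could not change that count, so it says nothing of stability. The lowest level among the 5 was 44.0 TPM (Abcb11 in pup 1), and every other bile acid gene had no counts in at least 1 liver. The summed share ran from 0.144 to 0.176% with 1 library left out and from 0.145 to 0.171% otherwise. The count of 5 genes more than 2-fold apart fell to 1 (Cyp27a1) when at least 100 expected counts were required in both livers, since genes at 0 in 1 liver drop out. It was 8 at 1.5-fold, 6 with spike-in totals, 7 with hepatocyte marker scaling and 6 on coding transcripts alone, which put Slc27a5 at a log2 ratio of 1.10. With 1 library the count has no value. The share of all genes was not computed under these changed settings. Their counts therefore cannot be read against the 67.6% of the main setting. The settings on coding transcripts and on the longest coding length were chosen after seeing the data. No log2 ratio of a bile acid gene changed sign under the settings tried. TMM, DESeq2, spike-in and hepatocyte scaling put the median log2 ratio of all genes at 0.26, 0.25, -0.14 and -0.21, against 0.04 unscaled. Of 110 mean levels under settings other than a left-out library, 107 stayed within 1 SD. The exceptions were Slc27a5 (140 TPM) and Abcb11 (36.1 TPM) on coding transcripts and Cyp7b1 (0.0159 by posterior mean TPM). Leaving out 1 of 2 libraries cannot move a mean by 1 SD, so it says nothing of stability. For genes at 0 in 1 liver the SD exceeds the mean (Cyp7a1, mean 19.3 and SD 27.35 TPM). The other settings could therefore hardly move those means by 1 SD either. No paired analysis was possible because both libraries belong to 1 group.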
